A study of Mus musculus with 2 samples.

Results

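A set of 393 luminal epithelial cells of DoubleTg prostate tumour tissue, chosen by their own counts of Spink5, Cxcl17 and Pigr, was described among 21564 cells of the series. The cells came from 1 library, and each had over 200 and under 7000 detected genes, under 15% mitochondrial UMIs, at least 1 Epcam UMI, no Ptprc UMI and at least 2 UMIs of each of Spink5, Cxcl17 and Pigr. A UMI (unique molecular identifier) marks 1 captured RNA molecule. Cells rich in basal keratins (Krt5, Krt14 and Krt15 at 20 or more per 10000 UMIs in sum), in Msmb or Pbsn (50 or more per 10000) or in Sbp and Sbpl (1000 or more per 10000) were set aside, as were cells with at least 4 of 6 proximal luminal genes (Psca, Ly6d, Aldh1a3, Ctse, Areg, Msln) at 2 UMIs. The Spink5/Cxcl17/Pigr cells made up 4.65% of 8458 epithelial cells in that library (95% Clopper-Pearson interval 4.21% to 5.12%).

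DoubleTg mice (hHGFtg:H11hMET/+:PBCre4) carried a ubiquitous human HGF transgene and a human MET transgene that the probasin-driven PB-Cre4 recombinase switches on in prostate epithelium, on a mixed C57BL/6 and C3H SCID background. TripleTg mice also carried one Ctnnb1 L(Ex3) allele, from which the same recombinase removes an exon and leaves stabilised β-catenin. Tumour tissue, an adenocarcinoma in DoubleTg and a carcinoma in TripleTg, was dissociated with collagenase and TrypLE and profiled with 10x Genomics 3′ chemistry, with 1 library per genotype. The study describes the DoubleTg tissue as holding high-grade prostatic intraepithelial neoplasia as well as cancer. Which lesion or gland a cell came from is not known. The labels give no age and do not say how many mice went into a library. There was therefore no replicate check and no test between groups, and every interval covers counting error only.

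Spink5 encodes LEKTI, a secreted inhibitor of serine proteases of stratified and glandular epithelia. Cxcl17 is a chemokine of mucosal surfaces, and Pigr is the receptor that carries polymeric immunoglobulin across an epithelium into its secretions. Cells with such genes line airways, glands and ducts, where secreted inhibitors, antimicrobial proteins and chemokines guard the lumen.

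From DoubleTg, 302424122 UMIs in 12072 barcodes were read in, and 10598 cells passed the limits on genes and mitochondrial UMIs. From TripleTg, 229655259 UMIs in 9492 barcodes were read in and every cell passed. A total of 30 cell barcodes occurred in both libraries (0.249% of DoubleTg barcodes), among them 2 of the Spink5/Cxcl17/Pigr cells. The Spink5/Cxcl17/Pigr cells had a median of 39637 UMIs and 5240 genes. For comparison, 803 proximal-type cells had a median of 41235 UMIs and 362 Pbsn-high cells a median of 32905.5 UMIs. Each of these groups was itself chosen on the genes in its name or definition. Msmb-high cells, also luminal, had a median of 34933 UMIs. Background was read from 336 Ptprc-positive, Epcam-negative cells, with a median of 7676 UMIs. Those cells were shallower than the luminal groups, so their levels per UMI need not equal the background of deeper cells. Scrublet called 273 kept DoubleTg cells doublets (2.58%), 7 of them Spink5/Cxcl17/Pigr cells.

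The genes of the rule are given as a description. Spink5 (ENSMUSG00000055561, GRCm38 chr18:43963235-44022501, plus strand) reached a summed level of 5614 CPM (the UMIs of all cells of a group, scaled to a common total so that 100 CPM equal 1 in 10000 UMIs; exact Poisson interval 5578 to 5651) in the Spink5/Cxcl17/Pigr cells. The level was 115 CPM in proximal-type, 39.8 CPM in Pbsn-high and 40.2 CPM in Ptprc-positive cells, so the Pbsn-high value was no higher than background. Per cell, Spink5 ran from 0.236 to 422 per 10000 UMIs with a median of 23.4. Cxcl17 (ENSMUSG00000060188, chr7:25400053-25412886, minus strand) summed to 424 CPM, against 29.9, 5.39 and 2.70 CPM in the same 3 groups. Pigr (ENSMUSG00000026417, chr1:130826684-130852249, plus strand) summed to 2266 CPM, against 296, 221 and 42.9 CPM. Pigr was also plentiful in Msmb-high cells (959 CPM) and Sbp-high cells (1314 CPM), and Spink5 in Sbp-high cells (2930 CPM). Cxcl17 was at 83.2 CPM in Msmb-high and 61.1 CPM in Krt-high cells. None of the 3 genes was thus limited to the cells that the rule selected.

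**Figure D1:**
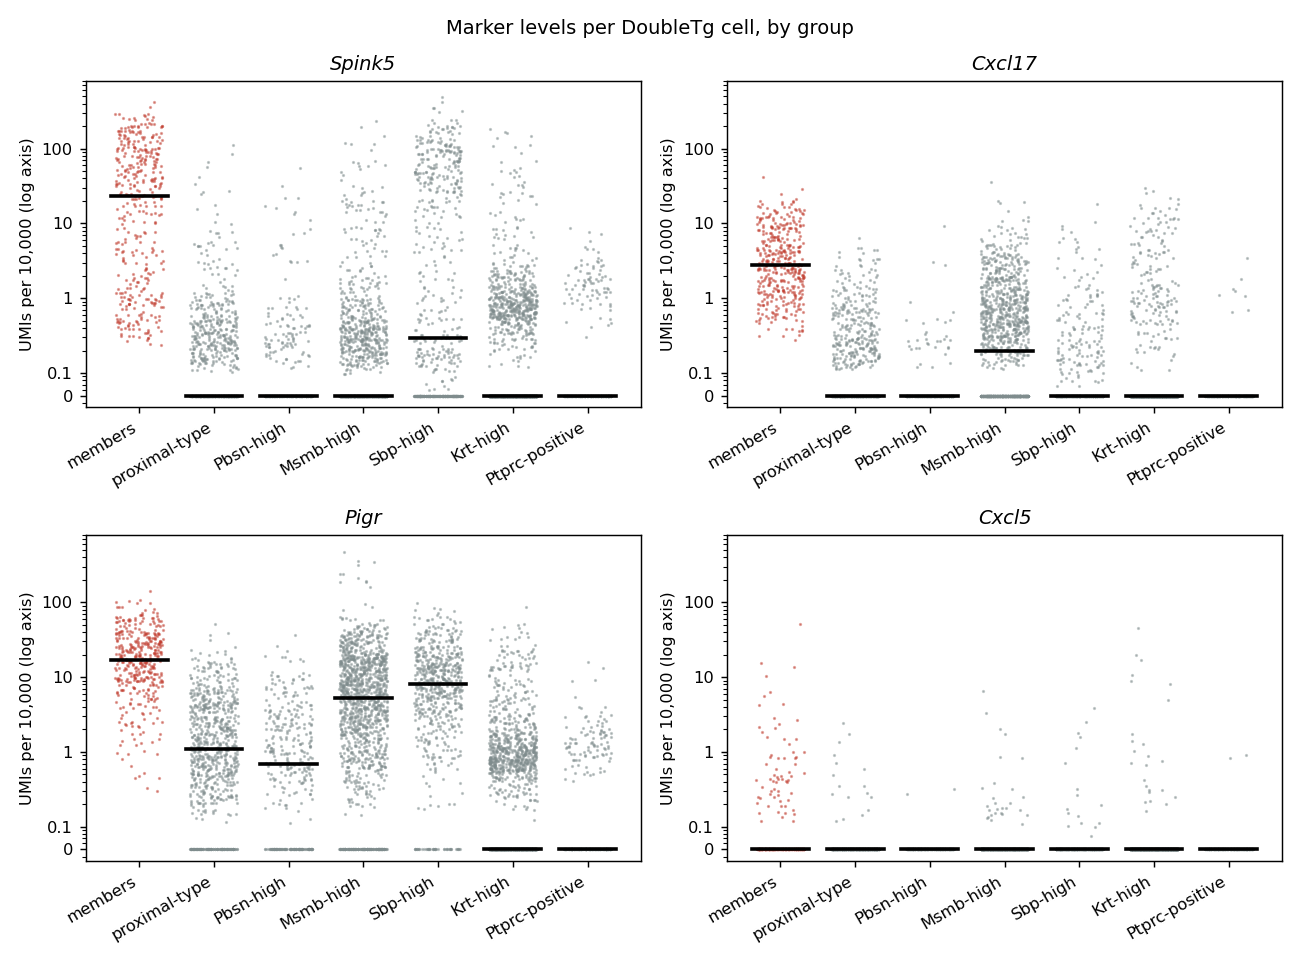
UMIs of Spink5, Cxcl17, Pigr and Cxcl5 per 10,000 UMIs in single DoubleTg cells (log axis, cells with none drawn at 0), with 1 point a cell and the median of each group as a bar. Members are the 393 Spink5/Cxcl17/Pigr cells, with a Spink5 median of 23.4, and their Cxcl5 median is 0.

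The limits of the rule cut through continuous values. Exactly 2 UMIs of Spink5 were found in 57 of the selected cells, of Cxcl17 in 39 and of Pigr in 6. In 21 of the selected cells Spink5 was at or under 0.402 per 10000 UMIs, the level over all Ptprc-positive cells. In 157 it was at or under the 8.69 per 10000 of the highest Ptprc-positive cell. Yet no Ptprc-positive cell held more than 3 Spink5 UMIs, while 38 of the selected cells under 10 per 10000 held 10 or more. The 157 is therefore not a count of cells at background. Just outside, 97 cells had 1 UMI of Spink5 with both other genes met, 92 had 1 UMI of Cxcl17 and 5 had 1 UMI of Pigr. A further 286 epithelial cells had all 3 genes at 2 UMIs and were set aside by the other limits: 122 were Msmb-high, 63 Sbp-high, 59 proximal-type, 37 Krt-high and 5 Pbsn-high. The highest Msmb value inside was 48.5 per 10000 UMIs and the lowest outside on Msmb alone was 50.3. For Sbp and Sbpl these values were 993.6 and 1000.4. Of the 6 proximal luminal genes, 88 selected cells had none at 2 UMIs, 188 had 1, 75 had 2 and 42 had 3.

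Spink5 level varied widely among the cells. A break at 10 per 10000 UMIs, set after the values had been seen, gave 235 Spink5-rich cells (9668 CPM) and 158 Spink5-poor cells (186 CPM), with 18 cells between 5 and 10 and 17 between 10 and 15. Median depth was similar, at 36963 UMIs in Spink5-rich and 41825 UMIs in Spink5-poor cells. Of 18 clusters of the kept cells, 1 held 220 of the selected cells, 193 Spink5-rich and 27 Spink5-poor, and its leading genes were Spink5, Cxcl17, Pigr, Slc26a4, Gne and Cbr2. A second cluster, led by Ifit1, Rsad2, Reg3b and Ppp1r1b, held 89 selected cells, 82 of them Spink5-poor. The rest were spread over 9 clusters, with 25 in a cluster led by the proximal genes Aldh1a3 and Psca, 18 in one led by Gsdmc3, Gsdmc2, Naip5, Ccl20 and Cyp2f2 and 12 in one led by fibroblast genes.

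**Figure D2:**
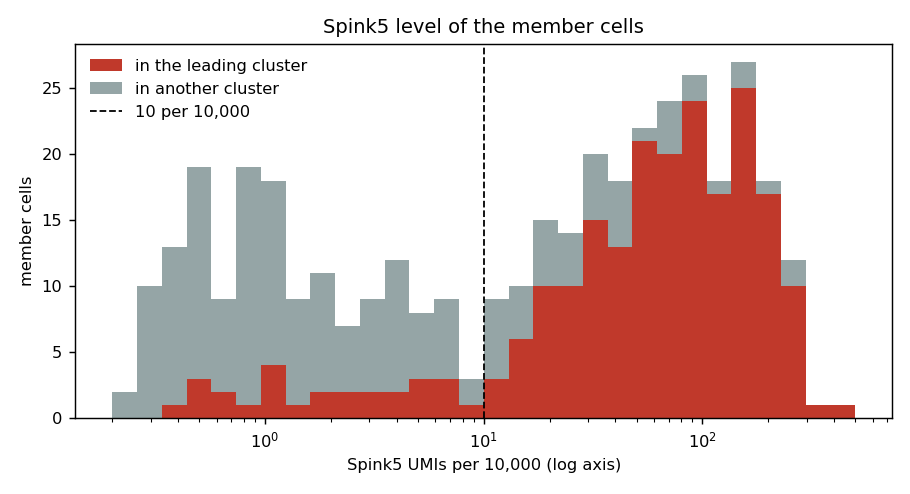
Number of Spink5/Cxcl17/Pigr cells by Spink5 UMIs per 10,000 UMIs (log axis), coloured by whether the cell lay in the cluster that held most of them. The 220 cells of the leading cluster lie mostly to the right of the dashed line at 10, and most other cells to its left.

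Luminal genes were present on both sides of this break. All 10 genes of a luminal list were above 50 CPM, among them the simple keratins Krt8 (5124 CPM), Krt18 (4238 CPM) and Krt19 (4425 CPM). Krt8 was found in every cell, and its level was 4819 CPM in Spink5-rich and 5532 CPM in Spink5-poor cells. Markers of other cell types were low: the 16 immune genes summed to 13.1 CPM (6709 CPM in Ptprc-positive cells), the 6 endothelial genes to 2.43 CPM and the 7 neuroendocrine genes to 1.99 CPM, with Chga at 0. Fibroblast genes summed to 183 CPM in Spink5-rich and 27.2 CPM in Spink5-poor cells, against 55.3 CPM in proximal-type cells, led by Dcn and Apod. Smooth muscle genes summed to 21.3 CPM. The urothelial gene Upk1a reached 209 CPM, close to the 228 CPM of proximal-type cells, while Upk2 and Upk3a were at 4.05 and 0.124 CPM. Airway secretory genes other than Cyp2f2 were low, with Scgb1a1 at 11.8 CPM and in 4.83% of cells. The part of these cell types in the results was not tested.

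Classical mucosal genes were unevenly represented. Of 31 antimicrobial and mucosal secreted genes, 21 were under 10 CPM in the Spink5/Cxcl17/Pigr cells, and 5 had no UMI at all, beside 75.3% and 42.9% of all 28000 features. Those without a UMI included the airway protein genes Bpifa1 and Bpifb1 and the trefoil gene Tff2. The gel-forming mucin Muc5b and the oxidase Duox2 were at 1 UMI each. Lactoferrin (Ltf) was at 16.7 CPM and Slpi, an inhibitor of neutrophil elastase, at 5.04 CPM, found in 4.83% and 4.07% of cells. The polymeric immunoglobulin J chain (Jchain), whose product binds the Pigr protein, was at 0.373 CPM.

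The 5 list genes above 50 CPM were Wfdc2, Agr2, Defb1, Lcn2 and Reg3g, and 5 others lay between 10 and 50 CPM, namely Reg3b, Wfdc18, Ltf, Spdef and Tff3. Wfdc2, a whey acidic protein family gene of airway and genital tract secretions, was at 1677 CPM, 1.55-fold the level of proximal-type cells (interval 1.53 to 1.58) and 30.1-fold that of Pbsn-high cells (27.7 to 32.6). Agr2, a disulfide isomerase of mucus-secreting cells, was at 602 CPM, 1.79-fold above proximal-type and 2.31-fold below Pbsn-high cells. The iron-binding lipocalin Lcn2 was at 98.1 CPM, against 53.0 and 19.4 CPM. The β-defensin Defb1 was lower in the Spink5/Cxcl17/Pigr cells (103 CPM) than in proximal-type (499 CPM) or Pbsn-high cells (1212 CPM). Reg3g, a C-type lectin that binds bacteria, was at 14.2 CPM in Spink5-rich and 105 CPM in Spink5-poor cells. Of the 5 list genes with 50 CPM in either group, none was 2-fold higher and 2 were 2-fold lower than in proximal-type cells, beside 4.13% and 4.31% of all genes. Against Pbsn-high cells 2 were higher and 2 lower, beside 9.42% and 7.45%. The list's median log2 ratio was 0.63 over proximal-type and 0.61 over Pbsn-high cells, beside medians of 0.04 and -0.01 over all genes compared. The former turned negative under 3 of the alternatives (-0.17 with cells thinned to 5000 UMIs).

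Genes were compared where one group or the other reached 50 CPM, leaving out the rule's genes and mitochondrial genes. Of these, 113 of 2739 were 2-fold or more higher than in proximal-type cells (4.13%) and 118 were 2-fold or more lower (4.31%). Against Pbsn-high cells, 272 of 2887 were higher (9.42%) and 215 lower (7.45%). Of the 113 higher genes, 104 were 2-fold higher in Spink5-rich and 70 in Spink5-poor cells taken alone. Of the 118 lower genes, 118 and 71 were. These genes were chosen on all the cells together. Compared on their own, 328 genes were 2-fold apart from proximal-type cells in Spink5-rich and 154 in Spink5-poor cells.

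The first 4 genes of the ranking over proximal-type cells were the haemoglobins Hbb-bt, Hba-a2, Hba-a1 and Hbb-bs, and these came from 1 cell. That cell held 5190 of the 5202 Hbb-bs UMIs, and without it Hbb-bs was at 0.749 CPM. Spink1, a secreted Kazal-type trypsin inhibitor, came next, at 13959 CPM, 23.7-fold above proximal-type cells (interval 23.3 to 24.0). Its sum was uneven: 1 cell held 13.9% of it, 10 cells held 46.8% and the median cell had 3.63 per 10000 UMIs. It was at 22271 CPM in Spink5-rich and 2828 CPM in Spink5-poor cells. Spink1 was far higher in Sbp-high cells (87581 CPM) and reached 717 CPM in Ptprc-positive cells. The proximal-type level, 590 CPM, was lower than that. Per 10000 UMIs, the median Ptprc-positive cell, at 6.87, lay above the median Spink5/Cxcl17/Pigr cell. Ptprc-positive cells were shallower, so these levels do not settle what is background. As counts, 10 or more Spink1 UMIs were found in 366 of 803 proximal-type, 255 of 393 selected and 40 of 336 Ptprc-positive cells.

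At full depth, the next genes were found in over 50% of the cells, though not evenly. In the shallower Ptprc-positive cells the shares were 10.1% for Cbr2, 11.9% for Ank and 2.38% for Tac1. Cbr2, a carbonyl reductase known from airway club cells, was at 1215 CPM against 143 CPM in proximal-type and 16.2 CPM in Pbsn-high cells, and was found in 97.2% of the cells. It was similar in Spink5-rich (1343 CPM) and Spink5-poor cells (1044 CPM). Slc26a4, the anion exchanger pendrin, was at 81.5 CPM against 6.28 and 1.67 CPM, a log2 ratio of 3.70 (3.49 to 3.91) over proximal-type cells. Ank, a phosphate and citrate exporter, was at 73.4 CPM, 15.4-fold higher (13.1 to 18.3). Csta1, a cystatin A gene, was at 51.3 CPM, 18.1-fold higher (14.7 to 22.5). Tac1, the precursor of substance P, was at 98.8 CPM, 22.0-fold higher (18.6 to 26.0), and was found in 57.3% of the cells, with 35.5% of its UMIs in 10 cells. Its level in Pbsn-high cells was 23.4 CPM. Per UMI, Ank and Tac1 were lower in proximal-type cells (168 and 159 of 35345345 UMIs) than in Ptprc-positive cells (47 and 22 of 2963058 UMIs). Both folds are thus ratios to a level under that of Ptprc-positive cells. In Spink5-poor cells Tac1 was found in 39.9% and Csta1 in 35.4%. The tight junction gene Cldn10 was at 260 CPM against 36.8 and 8.56 CPM, and Wfdc3 at 259 CPM against 31.3 and 16.5 CPM. All 7 of these genes were higher in Spink5-rich than in Spink5-poor cells, and in both higher than in proximal-type cells. Ank was at 103 and 34.4 CPM, Tac1 at 139 and 44.7 CPM, Csta1 at 68.4 and 28.4 CPM and Wfdc3 at 363 and 120 CPM in Spink5-rich and Spink5-poor cells.

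Several of these genes were not particular to the selected cells. Cldn10 was at 253 CPM and Slc26a4 at 55.4 CPM in Msmb-high cells, and Ank and Tac1 were at 189 and 193 CPM in Sbp-high cells. Sbp-high cells also had more Nupr1 (3644 CPM) and about as much Csta1 (50.1 CPM). Cbr2 was at 690 CPM in Sbp-high and 483 CPM in Krt-high cells, and Fgfbp1 at 41.3 and 44.5 CPM. Wfdc3 was among the leading genes of a cluster led by Ibsp, Scgb2b27, Sbp and Sbpl, which held 12 of the selected cells. In the ranking over Pbsn-high cells the highest genes, after the haemoglobins, were Cbr2, Fgfbp1, Ank, Slc26a4, Nupr1, Spink1, Csta1 and Cyp2f2. Fgfbp1, which carries fibroblast growth factors, was at 57.3 CPM against 0.837 CPM, and at 75.2 CPM in Spink5-rich and 33.2 CPM in Spink5-poor cells. Nupr1, a stress-response nuclear protein, was at 2775 CPM against 60.5 CPM, and 460 CPM in proximal-type cells. Cyp2f2, a cytochrome P450 of club cells, was at 236 CPM against 6.14 CPM.

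**Figure D3:**
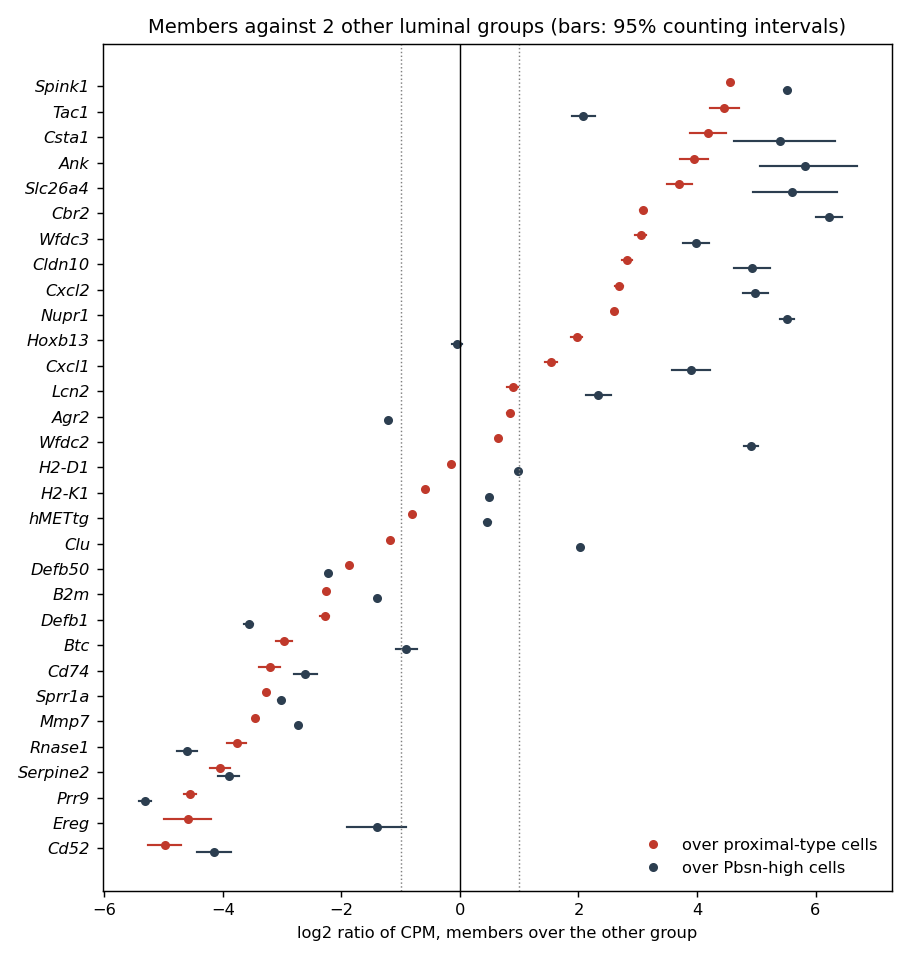
Log2 ratio of CPM in the Spink5/Cxcl17/Pigr cells (members) over proximal-type cells (red) and over Pbsn-high cells (blue), with 95% counting intervals as bars and 2-fold marked by dotted lines. Both comparisons use the same members. Cbr2, Slc26a4 and Ank lie to the right in both and Mmp7, B2m and Serpine2 to the left in both, while Clu and Agr2 change side.

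The 12 lowest over proximal-type cells were Cd52, Ereg, Prr9, Hamp, Serpine2, Ivl, Ang, Rnase1, Cpe, Crip1, Svs4 and Rnase4. Among them were the protease inhibitor Serpine2 (18.7 CPM against 309 CPM) and the ribonucleases Ang, Rnase1 and Rnase4 (4.23, 20.5 and 19.3 CPM against 58.6, 278 and 214 CPM). Cd52, a small surface glycoprotein of lymphocytes and of male genital tract epithelium, was at 7.09 CPM against 223 CPM, 31.5-fold lower (26.2 to 38.2). The 12 lowest over Pbsn-high cells included Tgm4, the prostate transglutaminase, at 64.0 CPM against 14497 CPM, and C1rb, a complement protease gene, 242-fold lower than 917 CPM. The rule left out cells with much Pbsn and cells with 4 or more proximal genes, and its part in these low values was not tested.

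Mmp7, a matrix metalloproteinase that activates defensins, was at 907 CPM against 9925 CPM in proximal-type cells, 10.9-fold lower (10.8 to 11.1), and against 6039 CPM in Pbsn-high cells. It was at 364 CPM in Spink5-rich and 1634 CPM in Spink5-poor cells. Sprr1a, a cornified envelope protein, was at 416 CPM against 4009 and 3385 CPM. Clu, the secreted chaperone clusterin and a proximal luminal marker, also differed along the Spink5 break. It was at 8429 CPM in Spink5-rich and 32481 CPM in Spink5-poor cells, beside 42602 CPM in proximal-type and 4591 CPM in Pbsn-high cells. Of 11 genes of a proximal luminal list compared, 3 were 2-fold higher (Cp, Ppp1r1b and Cyp2f2) and 3 lower (Clu, Krt7 and Sprr1a) than in proximal-type cells, beside 4.13% and 4.31% of all genes. Against Pbsn-high cells 10 of 11 were higher and 1 was lower, beside 9.42% and 7.45%. Ppp1r1b passed the limit on level through the selected cells alone in both comparisons, and Cyp2f2 did so against Pbsn-high cells. The counts of higher genes thus in part restate that limit.

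Spink5 is known as an inhibitor of tissue kallikreins. The kallikreins Klk5, Klk7, Klk8, Klk10, Klk11, Klk13 and Klk14 had no UMI in the 393 cells, which at 16069210 UMIs allows at most 0.187 CPM each. The membrane serine proteases St14 (matriptase), Prss8 (prostasin) and Tmprss2 were present at 162, 191 and 68.1 CPM, and were within 2-fold of their levels in proximal-type cells. Tmprss4 was at 25.7 CPM, against 6.85 and 0.279 CPM. Their inhibitors Spint1 and Spint2 were at 277 and 1102 CPM, also within 2-fold. Of 12 inhibitor genes compared with proximal-type cells, 1 was 2-fold higher (Spink1) and 4 lower, among them the cysteine protease inhibitor Cst3 (644 against 1753 CPM) and Serpinb5 (68.7 against 197 CPM), beside 4.13% and 4.31% of all genes. Csta1 and Wfdc3, given above as higher, belong to inhibitor families but were not on the list. Against Pbsn-high cells 2 of the 12 were higher and 5 lower, beside 9.42% and 7.45%.

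Cxcl5, given as a marker of these cells, was found in few of them. Cxcl5 (ENSMUSG00000029371, chr5:90759360-90761624, plus strand) had 802 UMIs in 68 of the 393 cells, or 49.9 CPM, of which 10 cells held 82.7% and 1 cell held 357 UMIs. The median cell had none, and the level was 68.8 CPM in Spink5-rich and 24.6 CPM in Spink5-poor cells. At 5000 UMIs a cell, 6.43% of 389 cells had a Cxcl5 UMI (interval 4.20% to 9.34%), against 0.748% of proximal-type and 0.360% of Ptprc-positive cells. Unthinned, the shares were 17.3%, 2.12% and 0.595%. The summed level was 32.1-fold that of proximal-type cells (24.4 to 43.0). Over Pbsn-high cells, whose 2 UMIs were set to 3, the ratio was 7.48 on the log2 scale (5.93 to 9.76).

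Other chemokines of neutrophils lie in the same gene cluster on chromosome 5. Cxcl2 was at 558 CPM against 86.8 CPM in proximal-type and 17.7 CPM in Pbsn-high cells, and Cxcl1 at 119 CPM against 40.8 CPM, and 14.8-fold over Pbsn-high cells. Both passed the level limit and both were 2-fold higher in both comparisons, beside the 4.13% and 9.42% of all genes. Only Cxcl2 in proximal-type cells was itself above 50 CPM. In the other comparisons the genes passed the limit through the selected cells alone, so these calls are a description. Cxcl15, an airway and gland chemokine, was at 33.9 CPM against 2.89 and 0.465 CPM, and Cxcl3 at 27.1 CPM against 0.622 CPM in proximal-type cells. The dendritic cell chemokine Ccl20 was at 25.3 CPM, against 0.396 CPM, and was found in 5.60% of cells. The 18 cells of the cluster led by Gsdmc3 held 49.5% of the Ccl20, 25.6% of the Cxcl15, 35.1% of the Cyp2f2 and 59.9% of the Ltf UMIs. In the other selected cells Ccl20 was at 13.6 CPM, Cxcl15 at 26.9 CPM, Cyp2f2 at 164 CPM and Ltf at 7.18 CPM. Cxcl1 differed less in its share of cells, with a UMI in 38.4% of the Spink5/Cxcl17/Pigr and 35.5% of proximal-type cells, and 17.0% and 11.5% at 5000 UMIs, and Krt-high cells had as much of it (122 CPM). These sums were also carried by few cells: 10 cells held 50.6% of the Cxcl2 UMIs and 41.1% of the Cxcl1 UMIs. Across the 389 thinned cells, of which 25 had a Cxcl5 UMI, Cxcl2, Cxcl15, Slc39a4 and Cxcl1 had the highest rank correlations with Cxcl5 (Spearman 0.347, 0.236, 0.207 and 0.206). The counts were sparse and from 1 library. Ptprc-positive cells had 3971 CPM of Cxcl2 and 882 CPM of Cxcl1 but 0.675 CPM of Cxcl5 and of Cxcl15. The part of such cells in the Cxcl1 and Cxcl2 levels was not tested.

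Cxcl1 and Cxcl2 were each higher as sums, and whether they were high in the same cells was not tested. The bases just before their starts are shown beside those of Pigr, because NF-κB, a regulator of chemokine genes, binds sites of the form GGGNNNNNCC. Each is the 250 bases before the RefSeq start (GRCm38.p6, plus strand), at chr5:90890995-90891244, chr5:90903649-90903898 and chr1:130826434-130826683. Capitals mark each match to that form on either strand, with overlapping matches merged.
Cxcl1: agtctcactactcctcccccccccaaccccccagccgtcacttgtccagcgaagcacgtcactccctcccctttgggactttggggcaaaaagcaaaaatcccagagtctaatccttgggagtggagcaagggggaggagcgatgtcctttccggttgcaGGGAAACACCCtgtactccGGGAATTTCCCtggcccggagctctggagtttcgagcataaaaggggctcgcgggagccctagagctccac
Cxcl2: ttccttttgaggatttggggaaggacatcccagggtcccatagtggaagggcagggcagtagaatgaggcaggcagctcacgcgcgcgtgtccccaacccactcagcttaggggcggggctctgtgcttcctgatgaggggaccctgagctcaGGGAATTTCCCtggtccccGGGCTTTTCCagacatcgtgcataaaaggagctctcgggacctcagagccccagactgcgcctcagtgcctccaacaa
Pigr: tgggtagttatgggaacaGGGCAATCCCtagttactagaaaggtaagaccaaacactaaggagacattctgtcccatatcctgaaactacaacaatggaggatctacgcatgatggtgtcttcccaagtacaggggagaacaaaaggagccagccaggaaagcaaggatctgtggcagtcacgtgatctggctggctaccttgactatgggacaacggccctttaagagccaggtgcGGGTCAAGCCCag
Cxcl1 and Cxcl2 each held 2 merged matches, starting 90 and 71 bases and 97 and 78 bases before the start, and Pigr held 2, at 232 and 13 bases. The same window held a match for 45.8% of 32851 RefSeq starts, so a match alone is common. RefSeq windows of Cxcl3 and Ccl20 held a match and that of Cxcl15 did not.

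Of 9 genes of the IL-17 and NF-κB response compared with proximal-type cells, none was 2-fold higher or lower, beside 4.13% and 4.31% of all genes, and the median log2 ratio was 0.24, beside 0.04 over all genes. The inhibitor Nfkbia was at 450 CPM against 299 CPM, and the IL-17 receptor chains Il17ra, Il17rc and Il17re were at 11.9, 15.6 and 37.0 CPM against 11.2, 17.2 and 29.2 CPM. Against Pbsn-high cells 2 of 9 were 2-fold higher, beside 9.42% of all genes. The immediate early gene Atf3 was at 764 CPM against 262 CPM in proximal-type but 1630 CPM in Pbsn-high cells.

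Interferon-stimulated genes were higher in a minority of Spink5-poor cells. Of 9 compared, 7 were 2-fold lower in Spink5-rich than in Spink5-poor cells, with a median log2 ratio of -2.75. Over all 2741 genes compared, 3.1% were lower, 1.31% were higher and the median was -0.06. Isg15 was at 55.1 CPM in Spink5-rich and 370 CPM in Spink5-poor cells, Ifit1 at 23.3 and 251 CPM, and Rsad2 at 23.5 and 336 CPM. Ifit1 and Rsad2 passed the limit of 50 CPM through Spink5-poor cells alone, so the count and the median in part restate that limit. A few cells carried these genes: 10 Spink5-poor cells held 86.3% of the Ifit1 UMIs of that kind, and the median cell had none. At 5000 UMIs an Isg15 UMI was found in 11.6% of Spink5-rich and 26.1% of Spink5-poor cells, against 12.2% of proximal-type and 41.7% of Ptprc-positive cells.

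Antigen presentation genes were unequal. B2m, the light chain of MHC class I, was at 1601 CPM against 7700 CPM in proximal-type cells (4.81-fold lower, interval 4.75 to 4.87) and 4229 CPM in Pbsn-high cells. The heavy chains H2-K1 (1349 against 2037 CPM) and H2-D1 (1115 against 1243 CPM) were within 2-fold. B2m was lower still in Sbp-high (605 CPM) and Krt-high cells (1050 CPM), and in Spink5-rich cells (1251 CPM) than in Spink5-poor cells (2071 CPM). Cd74, the class II invariant chain, was at 17.1 CPM against 158 and 104 CPM, beside 21371 CPM in Ptprc-positive cells, and the 8 class II genes summed to 40.4 CPM.

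Both transgenes were present. The human MET transgene hMETtg was at 457 CPM (446 to 467), lower than in proximal-type cells (798 CPM) and higher than in Pbsn-high cells (332 CPM), a log2 ratio of 0.46 over the latter (0.40 to 0.52). An hMETtg UMI was found in 86.3% of the cells, and at 5000 UMIs in 68.9% (64.0% to 73.5%), against 88.5% of proximal-type, 141 of 282 Pbsn-high and 7.91% of Ptprc-positive cells. The human HGF transgene hHGFtg was at 396 CPM, against 244 and 203 CPM and 24.0 CPM in Ptprc-positive cells. Its thinned share was 48.3% in Spink5-rich and 72.0% in Spink5-poor cells. Per UMI, hHGFtg was higher in Krt-high (21731 of 35546854 UMIs) and Msmb-high cells (22282 of 48243735 UMIs) than in the selected cells. It was lower in Sbp-high cells (4557 of 33834389 UMIs). hMETtg was also higher in Msmb-high cells (24403 UMIs), and lower in Sbp-high and Krt-high cells (5311 and 3012 UMIs). Mouse Met was at 133 CPM, against 202 and 109 CPM. Of genes that the study followed in these tumours, Cd44 and Mmp7 were 2-fold lower than in proximal-type cells (2 of 5, beside 4.31% of all genes), and Sox9, Tcf7l2 and Plaur were not. Against Pbsn-high cells 1 of the 5 was higher (Plaur) and 1 lower (Mmp7), beside 9.42% and 7.45%. The 12 Wnt targets summed to 162 CPM, against 135 CPM in proximal-type and 169 CPM in Pbsn-high cells.

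Hoxb13, a homeobox factor of the distal prostate, was at 172 CPM, 3.91-fold above proximal-type cells (3.67 to 4.16) and 0.962 times the Pbsn-high level. It was at 213 CPM in Spink5-rich and 117 CPM in Spink5-poor cells. Fkbp5, a co-chaperone gene, was at 66.5 CPM against 43.7 and 23.4 CPM. Of 12 epithelial transcription factors compared with proximal-type cells, 1 was 2-fold higher (Hoxb13) and none lower, beside 4.13% and 4.31% of all genes. In that comparison Hoxb13 passed the limit on level through the selected cells alone, so its call is a description. Against Pbsn-high cells 2 of 12 were higher and 3 lower, beside 9.42% and 7.45%. Of 7 genes of the EGF receptor axis compared with proximal-type cells, Egf was 4.09-fold higher while Ereg, Btc and the receptor gene Egfr were lower, Ereg 24.0-fold and Btc 7.84-fold (7.15 to 8.62). These are 1 higher and 3 lower of 7, beside 4.13% and 4.31% of all genes. Egf was 2.26-fold lower than in Pbsn-high cells (2.11 to 2.44). Hbegf, another ligand, was at 834 against 521 CPM. The 15 proliferation genes summed to 165 CPM, against 128 CPM in proximal-type and 96.8 CPM in Pbsn-high cells.

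**Figure D4:**
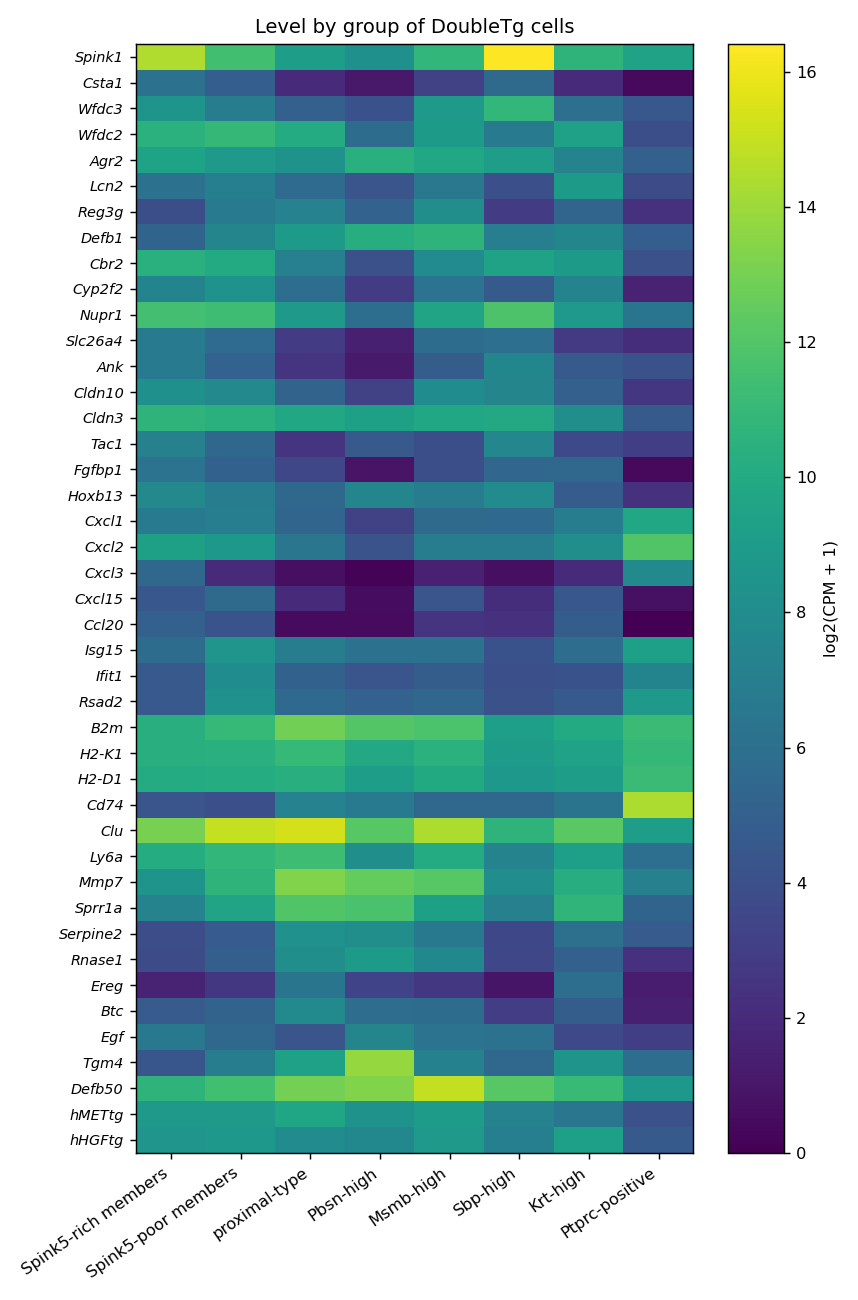
Level of 43 genes, as log2(CPM + 1), in Spink5-rich and Spink5-poor members and in 6 other groups of DoubleTg cells. Spink5-rich and Spink5-poor cells share Cbr2, Nupr1 and Cldn10, and Spink5-poor cells come nearer to proximal-type cells in Clu, Mmp7 and Sprr1a.

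The same rule found no cell in the TripleTg library. None of its 7687 epithelial cells passed, which allows a share of up to 0.0390% by 3 counts and 0.0480% by the Clopper-Pearson interval, beside 4.65% in DoubleTg. The absence was not particular to these cells: TripleTg also held no Sbp-high or Msmb-high cell and 2 Pbsn-high cells, beside 625, 1317 and 362 in DoubleTg. Median depth of epithelial cells was close, at 22502 UMIs in TripleTg and 21844.5 UMIs in DoubleTg. All 3 genes reached 2 UMIs in 1 TripleTg cell, a proximal-type cell, and in 679 DoubleTg cells. Over all epithelial cells, Spink5 was at 19.8 CPM in TripleTg against 1056 CPM in DoubleTg, Cxcl17 at 2.19 against 79.4 CPM and Pigr at 107 against 774 CPM. Cxcl5 went the other way, at 24.6 CPM in TripleTg and 7.02 CPM in DoubleTg, with 2 UMIs or more in 217 and 110 cells. With 1 library each, genotype and library cannot be told apart.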

How the data were processed

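Single-cell RNA of 1 DoubleTg and 1 TripleTg library of prostate tumour tissue was analysed. The methods speak of different littermates, and how many mice a library holds is not given in the sources used here. The deposited matrices hold raw UMI counts per gene and cell, which the authors made with Cell Ranger (6.0.2 per the labels; the DoubleTg file header names a later release) on mm10 with the transgene sequences added. Other deposited files hold barcodes and feature names (unit: other). The study states fewer DoubleTg cells, before and after its filter, than the 12072 barcodes and 10598 kept cells here. Its limits had already been applied to TripleTg.

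Groups were assigned in order: Krt-high, Sbp-high, Msmb-high, Pbsn-high, proximal-type, Spink5/Cxcl17/Pigr, remaining. UMIs were summed per group and divided by its total, and sums under 3 UMIs were set to 3. Genes compared had 50 CPM in either group, so some passed only through the group where they were high. Symbols used by more than 1 feature (121 of 28000) were left out of gene comparisons. Intervals are 95%: Poisson for sums, Clopper-Pearson for shares and conditional binomial for ratios. Thinning to 5000 UMIs left out 4 Spink5/Cxcl17/Pigr, 1 proximal-type, 80 Pbsn-high and 58 Ptprc-positive cells. Cells were clustered with scanpy 1.11.5 and leidenalg 0.10.2 (2000 variable genes, 20 components, 15 neighbours, resolution 1). Scrublet marked no TripleTg cell, so it did not work there. Positions are GENCODE M21 gene spans. The ratios were checked on simulated data.

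Named genes were the 12 highest and 12 lowest ratios in each comparison, the 15 highest levels, the genes of 35 lists and the 10 most like Cxcl5, taken among genes found in at least 20 thinned cells. Predicted genes were passed over. The cells, lists and comparisons were chosen with earlier results of these data known. Alternatives were thinning, equal weight of cells, other UMI and CPM minimums, removal of doublets, no quality limits and edgeR 4.0.16 TMM factors, and 4 subsets of the cells were added after seeing the data.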

Additional observations from a re-analysis of the deposited data

How the results depend on the processing

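The share of Spink5/Cxcl17/Pigr cells was 3.58% with 3 UMIs and 7.78% with 1 UMI of each gene, where 3 TripleTg cells (0.0390%) also passed. Genes 2-fold apart numbered 231 from proximal-type and 487 from Pbsn-high cells, 681 and 1304 with a minimum of 10 CPM, and 76 and 158 with 200 CPM. The log2 ratio of Cxcl5 over proximal-type cells was 4.45 with 1 UMI of each gene, 4.45 at 5000 UMIs, 5.82 without doublets, 5.47 in Spink5-rich, 3.98 in Spink5-poor and 5.61 in leading-cluster cells, and over Pbsn-high cells it was 4.36 at 5000 UMIs, where fewer UMIs stand over the same minimum of 3. That of hMETtg over Pbsn-high cells was 0.59 with 1 UMI, 0.38 at 5000 UMIs, 0.56 with cells weighted equally, 0.35 without quality limits and 0.53 in Spink5-poor cells.

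The median of the antimicrobial and mucosal list over proximal-type cells (0.63) was negative at 5000 UMIs (-0.17), with cells weighted equally (-0.14) and without quality limits (-0.42). It was 0.33 with 1 UMI, 0.45 with 3 UMIs, 0.53 with TMM factors, 0.40 in Spink5-rich, 0.26 in Spink5-poor and 0.058 in leading-cluster cells. Over Pbsn-high cells (0.61) it was 1.91 with 1 UMI, 0.40 with 3 UMIs, 0.31 with equal weights, 2.20 in Spink5-poor and 0.27 in leading-cluster cells. It rests on 5 genes, and the cause was not tested. The other values of these results stayed within their counting interval or within 1.5 times. Depth limits what can be said of Cxcl5, whose median cell had no UMI. No paired analysis was possible because each genotype has 1 library.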

Other observations

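The cluster that held most of the selected cells also held 195 cells outside the rule. Of these, 147 were epithelial cells set apart by no other limit, 111 of them with under 2 UMIs of Cxcl17, 52 with under 2 UMIs of Spink5 and 2 with under 2 UMIs of Pigr. A further 37 belonged to another group.

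The 5 genes of this paragraph fall outside the named-gene rule and were chosen after their values, higher in the Spink5/Cxcl17/Pigr cells than in proximal-type and Pbsn-high cells, had been seen. Slc5a8, a sodium-coupled monocarboxylate transporter, was at 38.8 CPM against 1.19 and 0.558 CPM and was found in 55.2% of the cells. Gne, the enzyme that starts sialic acid synthesis, was at 195 CPM against 30.2 and 16.0 CPM, and the glycosyltransferase gene Abo at 161 CPM against 36.0 and 16.4 CPM. Gjb2, a gap junction gene, was 6.32-fold above proximal-type cells (5.51 to 7.26). Gpr83, a G protein-coupled receptor gene, was at 24.8 CPM against 0.594 and 0.093 CPM, at 36.4 CPM in Spink5-rich and 9.17 CPM in Spink5-poor cells. Gne was at 241 CPM in Spink5-rich and 134 CPM in Spink5-poor cells, and Slc5a8 at 51.4 and 21.8 CPM.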
